A study of Mus musculus with 15 samples.

Results

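The granins and the enzymes that process neuropeptide precursors were followed in the RNA-sequencing counts of the developing mouse cortex and of cultured cortical neurons with and without *Phf6*. Earlier results of these data were known when the genes were chosen. The 10 genes were taken by symbol, from the Entrez gene identifiers of the count table, without a cut-off on their values. They are the granins *Vgf*, *Chga* (chromogranin A), *Chgb* (chromogranin B), *Scg2* (secretogranin II) and *Scg3* (secretogranin III), the small helper proteins *Scg5* (7B2) and *Pcsk1n* (proSAAS), and the processing enzymes *Pcsk1* (PC1/3), *Pcsk2* (PC2) and *Cpe* (carboxypeptidase E). All 10 were found among the 26150 identifiers of the table, and all 10 passed the filter on low counts in every comparison. By Entrez identifier and GRCm38 position the granins are *Vgf* (381677, chr5:137025301-137033351), *Chga* (12652, chr12:102554941-102565027), *Chgb* (12653, chr2:132781642-132795079), *Scg2* (20254, chr1:79434366-79440026) and *Scg3* (20255, chr9:75643366-75685959). The helpers are *Scg5* (20394, chr2:113776313-113829091) and *Pcsk1n* (30052, chrX:7919822-7924410), and the enzymes are *Pcsk1* (18548, chr13:75089420-75134861), *Pcsk2* (18549, chr2:143546133-143816284) and *Cpe* (12876, chr8:64592542-64693109).

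Neurons and endocrine cells pack peptides that are released on stimulation into dense-core granules. Granins are acidic secretory proteins that help these granules form and are themselves cut into peptides. PC1/3 and PC2 cleave peptide precursors at pairs of basic residues, carboxypeptidase E trims the basic residues that are left, 7B2 is needed for PC2 to mature, and proSAAS can inhibit PC1/3. In cortical neurons *Vgf* and *Scg2* are known as genes that respond to activity and to growth factors, and *Chga*, *Chgb*, *Scg2* and *Pcsk1* have been studied as targets of cyclic AMP signalling.

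The cyclic AMP response element (CRE) is the sequence TGACGTCA, which reads the same on both strands. Windows from 250 bases before to 50 bases after the start of the gene were searched for it in RefSeq sequence of GRCm38.p6, and 8 of the 10 genes had a window in the table (*Vgf* and *Cpe* had none). The element was present in 3 of the 8, against 1.79% of all 32851 windows. The 30 bases around it are shown for these 3 genes, because they share this feature. The 10 genes were not selected by it, but *Scg2*, *Chgb* and *Pcsk1* had been studied as targets of cyclic AMP signalling before the search. Its presence in them is therefore not an independent finding. *Chga* is shown for comparison, because its window held the first 5 letters of the element but not all 8. Its stretch reads TGACGTAA, which differs from the element at 1 letter. The windows of *Scg3*, *Scg5* and *Pcsk2*, not shown, also held the 5 letters without the full element. The strand is that of the gene, and capitals mark the full element or, in *Chga*, its first 5 letters.
Scg2: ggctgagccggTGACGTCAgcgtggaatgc
Chgb: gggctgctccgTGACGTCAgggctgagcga
Pcsk1: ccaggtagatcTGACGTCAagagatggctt
Chga: ggggcggtcctaTGACGtaatttcctgggt
These stretches lie at chr1:79440076-79440105 (minus strand), chr2:132781559-132781588 (plus strand), chr13:75089768-75089797 (plus strand) and chr12:102554885-102554914 (plus strand). The match began 68 bases before the start used for the window in *Scg2*, 72 in *Chgb*, 78 in *Pcsk1* and 44 in *Chga*. In *Pcsk1* the window was set on a later start than that of the gene interval given above, so the match lies inside this interval. In the other 3 genes it lies before the interval. GENCODE transcripts span the match in *Scg2* and *Chgb*, and none of its transcripts does so in *Pcsk1* and *Chga*. The 5 letters TGACG, searched on both strands and contained in the full element, were found in 7 of 8 windows, all but that of *Pcsk1n*, against 20.8% of all windows. The GC box GGGCGG, searched on both strands, was found in 6 of 8, against 35.7%, and the TATA box TATAAA, also searched on both strands, in 1 of 8, against 13.6%. These matches describe the letters of the windows and were not measured as binding sites.

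*Phf6* encodes a chromatin-associated protein and is on the X chromosome, and the design asks which genes change when it is lost in males. All mice were C57BL/6. E15.5 cortex was taken without culture from 3 *Phf6*+/Y and 5 *Phf6*-/Y foetuses of litters 1 to 3, the latter lacking the gene in every tissue. E16.5 cortical neurons were cultured for a day from foetuses of litters 4 to 7. The 3 control cultures were *Phf6*+/Y;*Nes-cre*Tg/+. The 4 deleted cultures were *Phf6*lox/Y;*Nes-cre*Tg/+, so both neuron groups carried *Nes-cre*, which expresses Cre in neural progenitors and their progeny, and only the latter carried the floxed allele. Litter 7 held 1 *Phf6*-deleted culture and no control, so it adds nothing to a difference between genotypes taken within litters.

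Library totals ranged from 16858007 to 31157700 counts (median 24218468). *Phf6* itself, as CPM (counts scaled by the TMM method to a common library size), was at 149 to 191 in control and 42.4 to 55.2 in *Phf6*-/Y cortices, and at 228 to 259 in control and 59.9 to 85.8 in *Phf6*-deleted neurons. These counts cover the whole gene, and exons outside the deletion can still give reads. The 8 cortical neuron markers summed to 4820 to 6310 CPM in the cortices and to 8740 to 9840 CPM in the neurons, whereas 8 progenitor markers summed to 2130 to 2790 and 511 to 833 CPM. One *Phf6*-/Y cortex, replicate 1 of litter 3, stood apart with 582 CPM over 9 markers of the thalamus and hypothalamus, where the other 7 cortices had 90.6 to 179. Another, *Phf6*-/Y replicate 4 of litter 1, had the highest sums of 5 meningeal markers, at 518 CPM against 11.9 to 267, and of 5 endothelial markers, at 270 CPM against 124 to 174. The sums of 5 choroid plexus markers were uneven in both genotypes, at 1.81 to 472 CPM in control and 2.38 to 333 CPM in *Phf6*-/Y cortices. Cortex values of the 10 genes are also given without replicate 1, and those of *Pcsk2*, *Pcsk1*, *Cpe*, *Scg2* and *Vgf* without replicate 4. Of 5 pituitary and endocrine markers, all in *Phf6*-deleted neurons and 4 in each other group were under 1 CPM in every library.

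Levels per length of gene, in RPKM, placed *Cpe* and *Scg3* at the top and *Pcsk1* at the bottom in all 4 groups. In control cortex *Cpe* was at 159 ± 5.18 RPKM (SD, n = 3) and *Scg3* at 83.3 ± 8.07, with no overlap between them. In control neurons both were at 140 RPKM, with overlapping ranges. *Chga* and *Scg5* came next and overlapped in both control groups, at 44.1 and 38.5 RPKM in cortex and at 68.4 and 64.7 RPKM in neurons. *Pcsk1n* was at 32.6 RPKM and *Chgb* at 19.4 RPKM in control cortex, and *Chgb* at 28.5 and *Pcsk1n* at 20.5 RPKM in control neurons, where their ranges overlapped. *Vgf* was the second lowest in control cortex at 2.74 ± 0.523 RPKM, overlapping *Pcsk2* at 3.32. It was above *Pcsk2* in control neurons, at 8.67 ± 1.60 against 4.03 ± 0.317 RPKM, with no overlap. *Pcsk1* was at 0.746 to 1.15 RPKM as a group mean, and its value in each library rested on 45 to 103 counts.

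**Figure D1:**
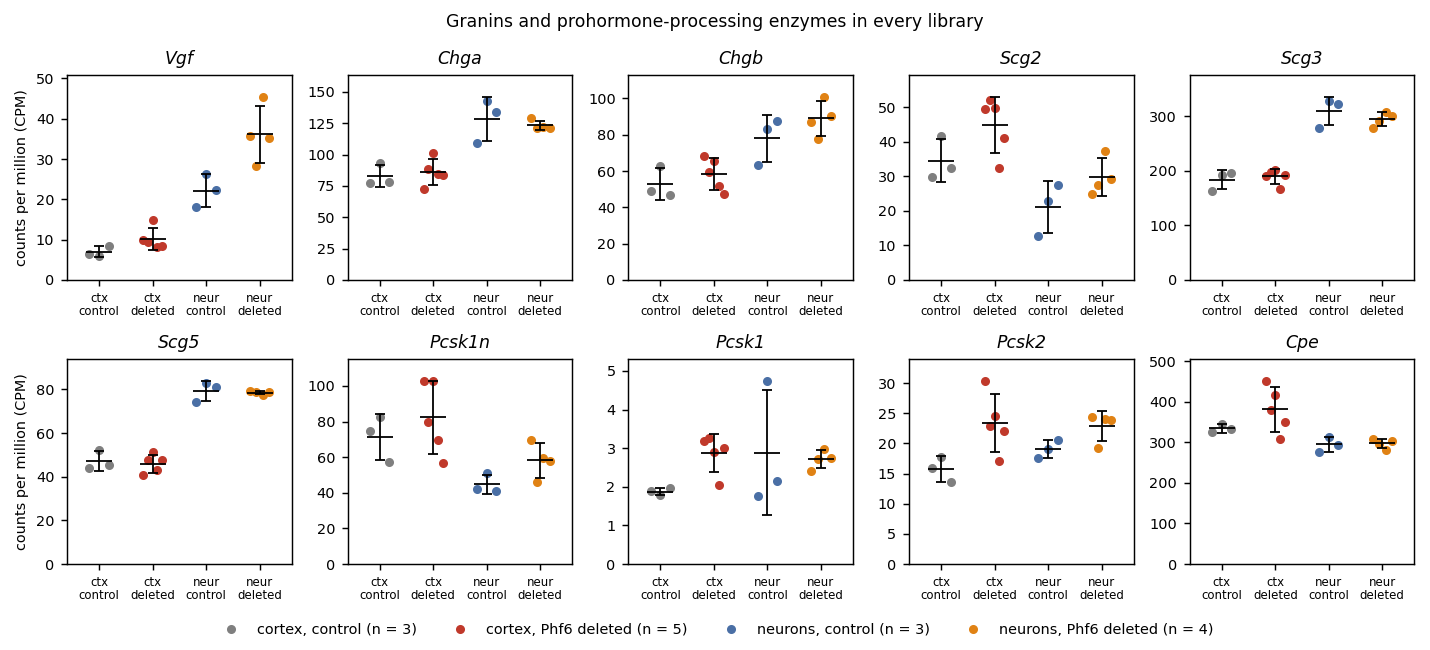
CPM (y axis, from 0, own scale for each gene) of the 10 genes in every library of the 4 groups (x axis; ctx, E15.5 cortex; neur, E16.5 neurons). Points are libraries, and bars are the mean and SD. *Vgf* stood at 5.94 to 15.0 CPM in the 8 cortices and at 18 to 45.5 CPM in the 7 neuron cultures, while *Scg2* was at 29.8 to 52.1 and 12.8 to 37.5 CPM.

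In the *Phf6*-/Y cortex none of the 10 genes reached an FDR below 0.05, but 9 of 10 had a positive log2 fold change, against 49.4% of all tested genes, and *Pcsk2* came nearest to the threshold at 1.51-fold the control level. The question was whether these genes differ when *Phf6* is deleted in the whole foetus. Over 14750 tested genes, 47 rose (0.319%) and 10 fell (0.0678%) by the quasi-likelihood test of edgeR, fitted within litters and adjusted after Benjamini and Hochberg. Without adjustment, 5 of the 10 had p below 0.05, all positive, against 839 higher and 703 lower of all genes, and with DESeq2 1 of the 10 passed at FDR 0.05. The median log2 fold change of the 10 was 0.209, and that of all tested genes was -0.00212. The 10 genes are not independent over these cortices, with Pearson's r of 0.932 for *Chgb* and *Pcsk1n* and 0.883 for *Pcsk2* and *Cpe*. The count of signs is therefore not a test. It includes *Chga* at 0.01 and *Scg3* at 0.03, which each changed sign in 2 of the 8 fits that left out 1 library. All libraries are bulk RNA, so a change in the number of cells that express a gene and a change in RNA per cell cannot be told apart.

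Among the enzymes, *Pcsk2* was at 15.9, 17.8 and 13.6 CPM in the 3 control cortices and at 30.4, 22.9, 24.6, 17.1 and 22.1 CPM in the 5 *Phf6*-/Y cortices. All but replicate 4 exceeded every control, and all 5 exceeded the control of their own litter, as did 8.18% of all tested genes. The log2 fold change was 0.59 (standard error 0.124, 95% interval 0.33 to 0.86, edgeR FDR = 0.0656). It was 0.47 with an edgeR FDR of 0.293 without replicate 1, the library high in thalamus and hypothalamus markers, which was also the highest for *Pcsk2*. Litter 3 held 1 library of each genotype, so leaving out either removes the difference of that litter. Without control replicate 1, the other library of litter 3, the edgeR FDR was 0.323. The call depended on the model, with an FDR of 0.00346 in DESeq2, 0.0145 without a low-count filter and 0.0279 in a fit of all 15 libraries. It was 0.0356 by edgeR without *Phf6*-/Y replicate 4, the lowest of the 5 for *Pcsk2*. *Pcsk2* overlaps the counted antisense genes *Pcsk2os1* and *Pcsk2os2*, and since the strand setting of the counting is not given in the sources used here, their reads may not be separate.

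*Pcsk1* was at 1.88, 1.78 and 1.97 CPM in control and at 3.19, 3.26, 2.89, 2.04 and 3.01 CPM in *Phf6*-/Y cortices. It was the only 1 of the 10 with every *Phf6*-/Y library above every control, a pattern that 2.47% of tested genes showed. The log2 fold change of 0.61 (standard error 0.267, interval 0.04 to 1.19) did not pass at an edgeR FDR of 0.443. *Cpe* was at 325, 346 and 332 CPM in control and at 452, 380, 417, 309 and 349 CPM in *Phf6*-/Y cortices, so that 4 of the latter lay above and 1 lay below every control (log2 fold change 0.19, interval 0.01 to 0.37, edgeR FDR = 0.451). Without replicate 1, *Pcsk1* was at 0.56 and *Cpe* at 0.09 on the same log2 scale.

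Among the granins, *Scg2* was at 29.8, 41.6 and 32.4 CPM in control and at 49.6, 52.1, 49.7, 32.5 and 41.0 CPM in *Phf6*-/Y cortices. Each *Phf6*-/Y value was above that of its litter's control, although in litter 1 the difference of replicate 4 was only 0.01 on the log2 scale. The log2 fold change was 0.37 (standard error 0.109, interval 0.13 to 0.60, edgeR FDR = 0.226), and 0.24 without replicate 1. *Vgf* was at 6.57, 5.94 and 8.50 CPM in control and at 10.0, 9.50, 15.0, 8.23 and 8.53 CPM in *Phf6*-/Y cortices. The excess of *Vgf* was in litters 2 and 3, where the *Phf6*-/Y libraries were 1.52- to 2.53-fold their control, and the libraries of litter 1 were at 0.968- and 1.00-fold. Its log2 fold change was 0.51 (standard error 0.211, interval 0.05 to 0.97, edgeR FDR = 0.417), and 0.25 without control replicate 2.

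The other granins differed less. *Chgb* had a log2 fold change of 0.15 (interval -0.05 to 0.35), which was 0.03 without replicate 1. *Chga* was at 0.01 (interval -0.14 to 0.16) and *Scg3* at 0.03 (interval -0.13 to 0.19), so that changes larger than these bounds are outside the interval. Of the helper proteins, *Pcsk1n* was at 0.23 (interval -0.00 to 0.46, edgeR FDR = 0.48) and *Scg5*, the only gene with a negative value, at -0.07 (interval -0.23 to 0.10). *Pcsk1n* overlaps the counted gene *Eras*, with the same limit on strand.

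The values changed in different ways when the cortices that stood apart were left out. Without *Phf6*-/Y replicate 1 of litter 3, *Vgf* was at 0.48, *Pcsk1n* at 0.14, *Chga* at 0.06 and *Scg5* at -0.05 on the log2 scale, and *Scg3* turned to -0.04, none of which passed. Litter 3 held 1 library of each genotype, so this fit lacks the difference of that litter. Without control replicate 1 of litter 3, *Scg3* was likewise at -0.04. Replicate 4 of litter 1 was the lowest of the 5 *Phf6*-/Y cortices for *Pcsk2*, *Pcsk1*, *Cpe*, *Scg2*, *Vgf* and *Scg3*. Leaving out the lowest library was bound to raise the values of these genes, so the rise itself is no support for them. Without replicate 4 *Pcsk2* passed, as given above, and *Scg2* was at 0.44 (edgeR FDR = 0.0768), *Pcsk1* at 0.73, *Vgf* at 0.59 and *Cpe* at 0.24. Values without it are not given for *Scg3* or for the genes where it was not the lowest. The part of the thalamus and hypothalamus, meningeal, endothelial and choroid plexus markers in these values was not tested.

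**Figure D2:**
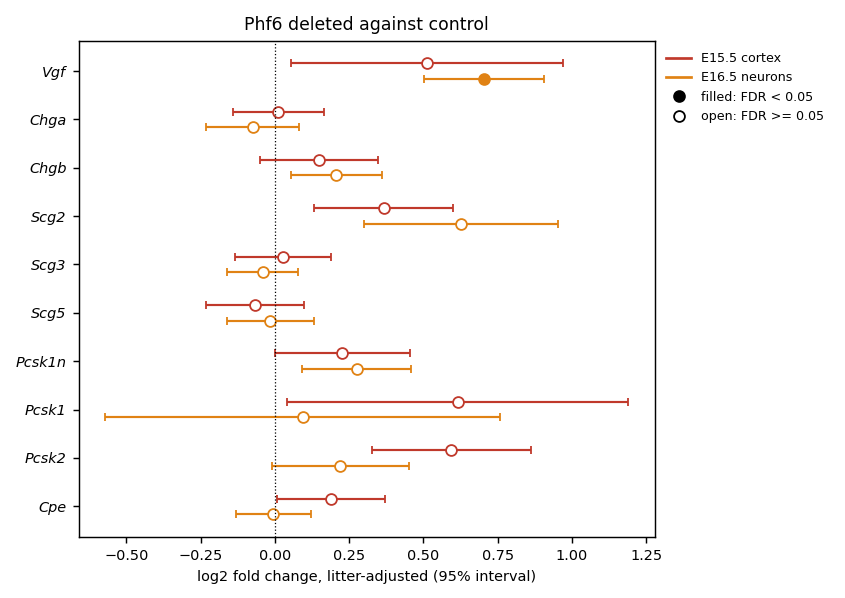
Log2 fold change of *Phf6*-deleted over control (x axis) for the 10 genes (y axis) in E15.5 cortex and E16.5 neurons, from edgeR with litter as a term; bars are 95% intervals. *Vgf* in neurons is the only filled point, at 0.70, and *Chga*, *Scg3* and *Scg5* lie within 0.08 of 0 in both.

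In the *Phf6*-deleted neurons *Vgf* rose 1.63-fold and was the only 1 of the 10 genes to pass the test. The question was the same, in cultures enriched for neurons and with deletion by *Nes-cre*. Of 13909 tested genes, 27 rose (0.194%) and 11 fell (0.0791%) at an FDR below 0.05, and *Vgf* was 9th in order of p. *Scg2*, *Pcsk1n* and *Chgb* had unadjusted p below 0.05 but did not pass, while 816 of all tested genes were higher and 621 lower at that level. Here 6 of the 10 had positive values, against 50.3% of all genes, with a median log2 fold change of 0.151 against 0.000974 over all genes.

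*Vgf* was at 18, 26.2 and 22.2 CPM in the 3 control cultures and at 35.7, 28.3, 45.5 and 35.1 CPM in the 4 *Phf6*-deleted cultures. The groups did not overlap, as in 3.61% of tested genes in this direction. Within litters 4, 5 and 6 the *Phf6*-deleted culture was at 1.58-, 1.74- and 1.58-fold its control. On the log2 scale the difference was 0.70 (standard error 0.0946, interval 0.50 to 0.91, edgeR FDR = 0.004). *Vgf* passed in all 7 fits that left out 1 library and in 7 of 9 other settings. The highest edgeR FDR of the 7 fits was 0.0457, without control replicate 2. Each of litters 4, 5 and 6 held 1 library of each genotype. Leaving out either removes the difference of that litter, so these fits are not 7 separate checks. Without the litter term the log2 fold change of *Vgf* was 0.71 with an edgeR FDR of 0.418. In the fit of all 15 libraries it was 0.70 with an edgeR FDR of 0.233.

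*Scg2* was at 12.8, 22.9 and 27.5 CPM in control and at 24.8, 27.6, 37.5 and 29.3 CPM in *Phf6*-deleted cultures. The difference was uneven between litters, at 2.15-fold in litter 4, 1.63-fold in litter 5 and 1.06-fold in litter 6. The log2 fold change was 0.63 (standard error 0.151, interval 0.30 to 0.95, edgeR FDR = 0.128). Without either library of litter 6 *Scg2* passed, at an edgeR FDR of 9.7e-08 without the control (replicate 3) and 4.78e-05 without the *Phf6*-deleted culture (replicate 4), with log2 fold changes of 0.91 and 0.90. Both fits called more genes in all, and without the control 335 were higher and 159 lower. Without control replicate 2 the edgeR FDR was 0.728, and with no low-count filter, where 178 genes were higher and 119 lower, it was 5.02e-06.

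*Pcsk1n* was at 42.4, 50.9 and 41.2 CPM in control and at 69.6, 45.9, 59.5 and 58.0 CPM in *Phf6*-deleted cultures, with 3 of 4 above every control (log2 fold change 0.28, interval 0.09 to 0.46, edgeR FDR = 0.239). *Chgb* had a log2 fold change of 0.21 (interval 0.05 to 0.36, edgeR FDR = 0.303) and, like *Scg2*, passed without either library of litter 6, at an edgeR FDR of 0.0119 without the control and 0.0287 without the *Phf6*-deleted culture. *Pcsk2* was at 17.6, 19.1 and 20.6 CPM in control and at 24.4, 19.2, 24.1 and 23.9 CPM in *Phf6*-deleted cultures. Its log2 fold change of 0.22 (interval -0.01 to 0.45, edgeR FDR = 0.502) was positive in all 3 litters. So were those of *Vgf*, *Scg2*, *Chgb* and *Pcsk1n*, as was the case for 16% of all tested genes.

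The remaining 5 genes were near 0 or too variable to place. *Cpe* was at -0.01 (interval -0.13 to 0.12), *Scg5* at -0.02 (interval -0.16 to 0.13), *Scg3* at -0.04 (interval -0.16 to 0.08) and *Chga* at -0.08 (interval -0.23 to 0.08) on the log2 scale. *Pcsk1* was at 1.76, 4.75 and 2.15 CPM in control and at 2.41 to 2.99 CPM in *Phf6*-deleted cultures. Control replicate 2 was well above the other libraries, and the interval of the log2 fold change of 0.09 ran from -0.57 to 0.76.

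**Figure D3:**
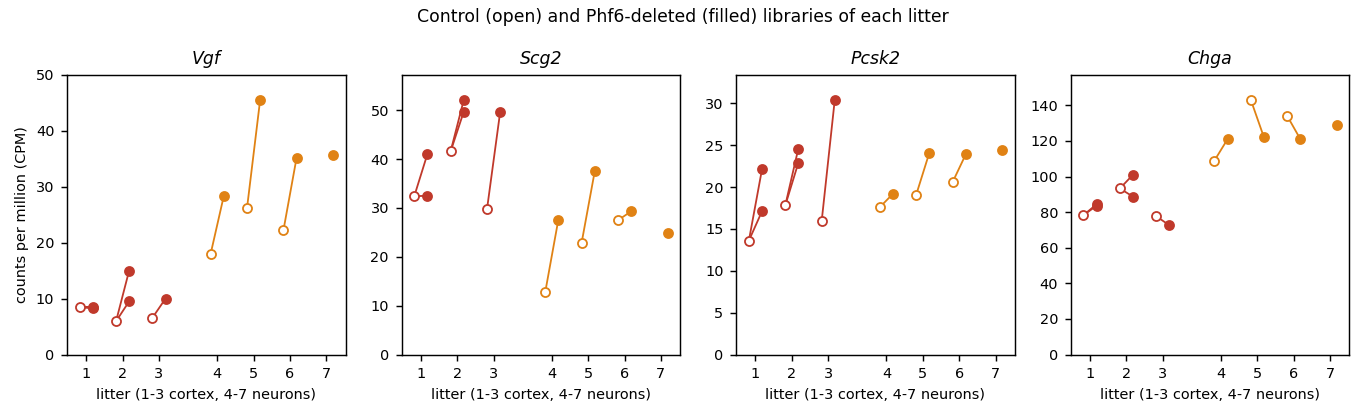
CPM (y axis, from 0) of *Vgf*, *Scg2*, *Pcsk2* and *Chga* by litter (x axis); open points are control libraries, filled points *Phf6*-deleted libraries, and lines join the libraries of 1 litter. The *Vgf* lines of litters 4 to 6 all climb, by 1.58- to 1.74-fold, whereas *Scg2* is at 1.06-fold in litter 6 and *Chga* has lines in both directions.

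Markers of other cells were measured beside these values. In the neurons all 6 Cajal-Retzius markers had positive log2 fold changes and 2 passed the test. *Reln*, which encodes the matrix protein reelin, was at 0.81 (edgeR FDR = 1.4e-05) and *Ndnf*, a secreted neurotrophic factor, at 1.24 (edgeR FDR = 0.00386). Their summed level was 111 to 157 CPM in control and 192 to 370 CPM in *Phf6*-deleted cultures, without overlap, and no marker was at 0 in every library of either group. The culture with 370 CPM was replicate 1 of litter 7, which has no litter control. The choroid plexus list summed to 0.88 to 3.14 and 2.98 to 23.2 CPM, and its single tested gene, *Ttr*, a thyroid hormone carrier, rose (log2 fold change 2.84). Of 5 tested thalamus and hypothalamus markers only 1, *Lhx9*, was positive, and the median was -0.0956. *Lhx9* passed, at 0.82, but did not pass without control replicate 2 (edgeR FDR = 0.103) or *Phf6*-deleted replicate 3 (edgeR FDR = 0.0823). In the cortex 2 of 6 Cajal-Retzius markers passed, *Lhx5* at 0.77 and *Calb2* at 0.56. There all 9 thalamus and hypothalamus markers were positive and *Dbx1* passed at 3.63. *Dbx1* was low, at 0 to 0.907 CPM in control and 0.402 to 12.7 CPM in *Phf6*-/Y cortices. None of *Lhx5*, *Calb2* and *Dbx1* passed without *Phf6*-/Y replicate 1, at 0.69, 0.52 and 3.33 with edgeR FDR of 0.209, 0.191 and 0.279. Without control replicate 1, the other library of litter 3, they were at 0.69, 0.51 and 3.32. The edgeR FDR was then 0.236, 0.222 and 0.209. Without replicate 4 *Lhx5* did not pass (edgeR FDR = 0.0521). Over the 8 fits that left out 1 library, *Lhx5* passed in 1, *Calb2* in 2 and *Dbx1* in 5. The part of these markers in the values of the 10 genes was not tested.

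The difference between the genotype effects was tested directly, as the effect in neurons minus that in cortex. None of the 10 genes passed among 15001 tested genes, of which 2 did (0.0133%; edgeR), and 341 higher and 438 lower genes had an unadjusted p below 0.05. No member passed with DESeq2 either. *Pcsk2* had the smallest p of the 10, 0.0428 before adjustment, with a difference of -0.38 (interval -0.74 to -0.01, edgeR FDR = 0.954). For *Vgf*, which passed in the neurons alone, the difference was 0.18 (interval -0.37 to 0.74, edgeR FDR = 0.958), so a larger effect in neurons was not shown. *Scg2* was at 0.26 (interval -0.22 to 0.73) and *Pcsk1* at -0.52 (interval -1.41 to 0.37). The other 6 lay between -0.20 and 0.05.

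The levels in neurons were also compared with those in cortex. In control libraries 5 of the 10 genes were higher in neurons and 1 was lower, where 24.7% and 26.4% of 14320 tested genes were higher and lower (3541 and 3777 genes). Neurons and cortex differ in embryonic day, culture, *Nes-cre*, litter and, by their markers, cell composition, which cannot be told apart. In control neurons 7 of 8 cortical neuron markers were higher and 1 was lower. All 8 progenitor, 8 interneuron and 5 endothelial markers were lower. The median log2 fold change was 0.759 for the cortical neuron markers and 0.582 for the 10 genes. *Vgf* was 3.15-fold higher in control neurons (log2 fold change 1.66, standard error 0.185, edgeR FDR = 9.32e-06). *Scg3* and *Scg5* were each 1.68-fold, *Chga* 1.55-fold and *Chgb* 1.47-fold higher. *Pcsk1n* was lower, at 0.627-fold (log2 fold change -0.67, edgeR FDR = 0.00125), so the 2 helper proteins differed in opposite directions.

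*Scg2* was the granin that did not follow the rest. In control libraries it was at 0.607-fold in neurons (log2 fold change -0.72, interval -1.36 to -0.08, edgeR FDR = 0.0605), with 12.8 to 27.5 CPM in neurons and 29.8 to 41.6 CPM in cortex. It passed without neuron control replicate 1 or 3, with DESeq2 and with plain library totals. *Cpe* was at -0.19 (edgeR FDR = 0.0596), *Pcsk2* at 0.27 (edgeR FDR = 0.128) and *Pcsk1* at 0.61 (interval -0.23 to 1.45) on the log2 scale. The positive value of *Pcsk1* rested on neuron control replicate 2 and was 0.08 without it.

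The *Phf6*-deleted libraries, none of which entered the control comparison, gave 5 genes higher and 3 lower in neurons, against 28% and 31.1% of 14416 tested genes (4041 and 4490). The 5 were again *Vgf* (3.50-fold), *Scg5* (1.70-fold), *Scg3* (1.55-fold), *Chgb* (1.52-fold) and *Chga* (1.43-fold). *Scg2* (0.659-fold, edgeR FDR = 0.00379), *Pcsk1n* (0.705-fold, edgeR FDR = 0.0322) and *Cpe* (0.777-fold, edgeR FDR = 0.00489) were lower. *Pcsk1n* passed in 4 of the 9 fits that left out 1 library, with edgeR FDR from 0.0618 to 0.0959 in the other 5, which lacked *Phf6*-/Y cortex replicate 1 or 3 or *Phf6*-deleted culture replicate 2, 3 or 4. *Pcsk1* at -0.09 and *Pcsk2* at -0.04 did not pass. Scaling by library totals instead of TMM moved the median log2 fold change of all genes from -0.0281 to -0.167 in the control and from -0.0305 to -0.186 in the *Phf6*-deleted comparison. The genes higher and lower were then 2459 and 5003, and 2640 and 5986. The 5 granin and helper genes stayed higher in both comparisons under that scaling, and in the control comparison *Scg2* and *Cpe* then passed as lower.

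**Figure D4:**
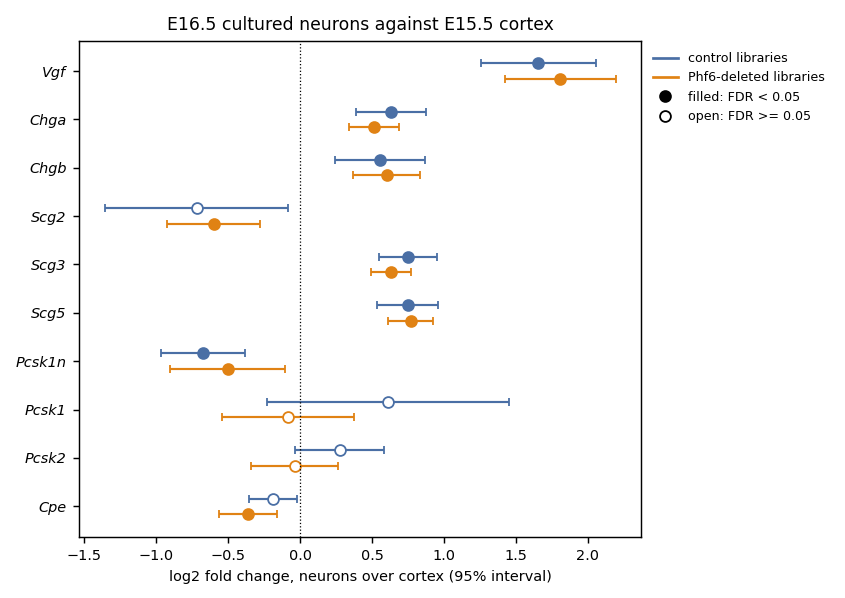
Log2 fold change of E16.5 neurons over E15.5 cortex (x axis) for the 10 genes (y axis) in control and in *Phf6*-deleted libraries, from edgeR; bars are 95% intervals and filled points have an FDR below 0.05. *Vgf* lies farthest to the right, at 1.66 and 1.81, and *Scg2*, *Pcsk1n* and *Cpe* lie left of 0 in both.

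Other genes of the pathway were taken from lists. Of 13 further processing enzymes, none passed in either genotype comparison by edgeR, and 2 of 13 in the cortex and 1 of 12 tested in the neurons had unadjusted p below 0.05. Their median log2 fold changes were -0.0358 and 0.102. *Pam*, which amidates the ends of many peptides, was at -0.06 in cortex and 0.07 in neurons. Between control neurons and cortex, *Pam* was higher (0.50, edgeR FDR = 0.000385), and *Pcsk6* (-2.67) and *Cpm* (-0.88), a convertase and a carboxypeptidase, were lower.

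Of 21 genes of dense-core granule formation and release, 1 passed in the cortex. *Ptprn*, a membrane protein of the granule, was at 9.39 to 16.2 CPM in control and 12.8 to 32.4 CPM in *Phf6*-/Y cortices, which overlapped, and had a litter-adjusted log2 fold change of 0.66 (standard error 0.119, edgeR FDR = 0.0368). *Ptprn* passed in 3 of the 8 fits that left out 1 library, and was at 0.52 with an edgeR FDR of 0.224 without *Phf6*-/Y replicate 1 and at 0.67 with 0.048 without replicate 4. It also did not pass without *Phf6*-/Y replicate 2 or any 1 of the 3 controls. In neurons it was at 0.10 (interval -0.12 to 0.31). The list had 16 of 21 positive values and a median of 0.102 in cortex, and 13 of 19 and a median of 0.0674 in neurons, where none passed by edgeR and 5 had unadjusted p below 0.05. Between control neurons and cortex 11 of 21 were higher and 3 lower, against 24.7% and 26.4% of all tested genes. *Baiap3* (-5.60) and the vesicle proteins *Syt4* (2.08), *Cadps* (0.50) and *Ptprn* (1.04) were among the listed genes that passed.

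The precursors that these enzymes act on were mostly low. Of 39 listed neuropeptide precursors, 25 were tested in the cortex and 15 in the neurons. *Sst*, the somatostatin precursor, was the only 1 to pass, in neurons, at 12.9 to 34.8 CPM in control and 24.5 to 74.5 CPM in *Phf6*-deleted cultures (log2 fold change 0.92, standard error 0.0974, edgeR FDR = 0.000552). Its value in the cortex was -0.26 (edgeR FDR = 0.422), and the difference between the effects passed (1.17, edgeR FDR = 0.0236). *Sst* was also 1 of the 8 interneuron markers. In neurons 5 of these 8 were positive, the median log2 fold change was 0.012, and none but *Sst* passed. In the cortex no precursor passed by edgeR, and 2 had unadjusted p below 0.05. Between control neurons and cortex 2 of 21 tested precursors were higher and 8 lower, led by *Tac1* (-4.19) and *Grp* (3.72). Of all tested genes 24.7% were higher and 26.4% lower in that comparison.

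Among activity-regulated genes, listed because *Vgf* and *Scg2* are known to respond to activity, 1 of 18 passed in the neurons. *Nr4a3*, a nuclear receptor induced by stimulation, was at 57.5 to 79.8 CPM in control and 79.9 to 95.8 CPM in *Phf6*-deleted cultures (log2 fold change 0.48, standard error 0.078, edgeR FDR = 0.0148). *Nr4a3* did not pass without control replicate 2 (0.42, edgeR FDR = 0.189) or *Phf6*-deleted replicate 3 (0.42, edgeR FDR = 0.138). Of the 18, 16 were positive, 12 had unadjusted p below 0.05, *Btg2* in the negative direction, and the median was 0.318. Over all tested genes 50.3% were positive, and 816 higher and 621 lower of 13909 had such a p. Their summed level was 462 to 514 CPM in control and 548 to 626 CPM in *Phf6*-deleted cultures, without overlap. In the cortex none of 17 passed by edgeR, 1 had unadjusted p below 0.05, the median was -0.0349 and the sums overlapped, at 352 to 375 and 336 to 391 CPM.

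**Figure D5:**
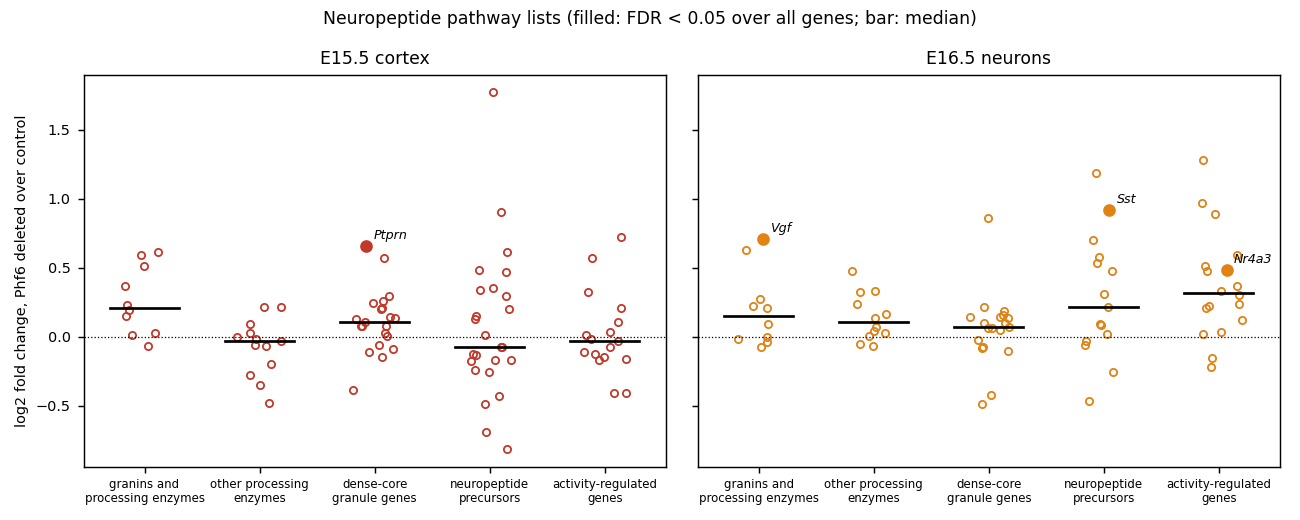
Log2 fold change of *Phf6*-deleted over control (y axis) for each tested gene of 5 lists (x axis) in E15.5 cortex and E16.5 neurons, from edgeR with litter as a term. Filled points have an FDR below 0.05 over all tested genes and bars are list medians, which in neurons run from 0.0674 for the dense-core granule genes to 0.318 for the activity-regulated genes.

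Within each tissue the 10 genes fell into patterns that can only be described, over 8 cortex and 7 neuron libraries that share litters and genotypes. *Chga* and *Scg5* followed each other, with Pearson's r of 0.877 in cortex and 0.967 in neurons on the log2 CPM scale. *Chgb* and *Scg2* did so too, at 0.791 and 0.932. *Vgf* and *Pcsk2* were at 0.591 and 0.873, whereas *Pcsk1* and *Pcsk2* were at 0.864 in cortex and 0.0854 in neurons. Among 13723 genes, ranked by the smaller of both r values, those most like *Vgf* were *Adgrb3* (0.882), *Brinp1* (0.860) and *Gpr135* (0.858). Those most like *Pcsk2* were *Mtus2* (0.967), *Nefl* (0.909) and *Ppm1h* (0.897), and the gene most like *Scg2* was *Rasgrf2* (0.860).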

How the data were processed

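The authors sequenced stranded libraries as read pairs and aligned them to mm10 with Rsubread. Read pairs were assigned to Entrez genes by featureCounts, using the RefSeq annotation built into it. The deposited counts are whole numbers and not normalized. All 15 sample files equal their columns of the series table. Rows without an identifier (1029, 0.349% to 0.605% of counts), unmatched identifiers (875), pseudogenes (835), rRNA genes (35) and predicted genes (1273) were removed, leaving 23132 genes, with names from RefSeq of GRCm38.p6.

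Counts were filtered with filterByExpr, scaled by TMM and tested with edgeR 4.0.16 in R 4.3.3 by robust quasi-likelihood F tests with Benjamini-Hochberg adjustment over all tested genes. Genotype was tested within each tissue with litter, given in the labels, as a fixed term. The comparisons of tissues had no litter term. Intervals are 95% and unadjusted. CPM use 1 TMM scale over 15 libraries, RPKM divide CPM by the deposited exonic length, and correlations use log2(CPM + 0.5). DESeq2 1.42.0, limma 3.58.1 (limma-trend), other scalings and filters, fits without litter and fits that leave out each library were alternatives. The fits were tested on simulated counts. Every listed gene was counted, all 10 members were named, and of the other lists genes that passed were named in order of p, up to 5, with *Pam* and *Btg2* in addition. The members and lists were chosen with earlier results of these data known. Some results of the likeness ranking are not reported here.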

Additional observations from a re-analysis of the deposited data

Results flagged for a closer look

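In each group of 4 or 5 libraries, the gap between the most extreme library and its neighbour was compared with the group's range by Dixon's criterion, in 20 groups (10 genes, 2 *Phf6*-deleted groups), of which 3 exceeded it. Chance flags about 1 group in 20. *Vgf* in *Phf6*-/Y cortex was highest in replicate 3, at 15.0 CPM, and the gap was 0.74 of the range (n = 5). *Chga* in *Phf6*-deleted neurons was highest in replicate 1, at 129 CPM, with a gap of 0.863 of the range (n = 4), although the whole range was 121 to 129 CPM. *Pcsk2* in *Phf6*-deleted neurons was lowest in replicate 2, at 19.2 CPM, with a gap of 0.904 of the range (n = 4), and the log2 fold change ranged from 0.16 to 0.27 over the fits that omit 1 library.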

How the results depend on the processing

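The litter labels pair the libraries. With no replicate block (no litter term), 0 genes were higher and 1 lower in each genotype comparison, no member passed, and in neurons *Pcsk1* was at -0.080 and *Cpe* at 0.012. The difference between effects then had 0 higher and 0 lower genes.

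In the cortex, DESeq2 called 156 genes higher and 43 lower with 1 member, no low-count filter 95 and 19 with 1 member, and the fit of all 15 libraries 1 member (*Pcsk2* each time). In neurons, DESeq2 called 47 genes higher, library totals 46 higher and 27 lower, no low-count filter 178 and 119 with 2 members, and the fit of all libraries 0 members. Members lower in control neurons were 2 with DESeq2, 3 with library totals and 2 with a 1 CPM filter. Genes higher in *Phf6*-deleted neurons against cortex were 2640 with library totals. For the difference between effects, DESeq2 called 2 genes higher and 10 lower, no low-count filter 2 and 3, and no annotation filter 2 lower. The causes were not tested.

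With 1 library left out, genes higher and lower ranged from 6 to 68 and 1 to 13 in cortex and from 12 to 335 and 4 to 159 in neurons (lowest without control replicate 2 in both, highest without *Phf6*-/Y replicate 5 and neuron control replicate 3), and members higher from 0 to 1 and 1 to 3. They ranged from 3038 to 3386 and 3221 to 3735 in control, and from 3634 to 3933 and 4077 to 4359 in *Phf6*-deleted neurons against cortex, with 1 to 2 and 2 to 3 members lower. For the difference between effects they were 0 to 1 and 0 to 3. Signs changed for *Chga* (-0.042 to 0.061) and *Scg3* (-0.040 to 0.11) in cortex, *Scg5* (-0.066 to 0.020), *Pcsk1* (-0.17 to 0.49) and *Cpe* (-0.056 to 0.065) in neurons, *Pcsk2* (-0.13 to 0.070) between *Phf6*-deleted sources, and *Vgf* (-0.15 to 0.46), *Chgb* (-0.042 to 0.18), *Scg5* (-0.0058 to 0.085) and *Pcsk1n* (-0.065 to 0.13) in the difference between effects.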
